A study of Mus musculus with 4 samples.

Results

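The complement genes described here are C1qa, C1qb, C1qc, C1ra, C3, C4b, Cfb, C3ar1 and C5ar1, the entries with these names in the gene count files of mouse pancreatic duct libraries. All 9 were found among 52535 gene models, and 8 of them were among the 13990 genes with enough counts to be tested. The 2 libraries labelled Lats1/2 KO (KO 1 and KO 2) came from C57BL/6 mice with the genotype Lats1fl/fl; Lats2fl/fl; Sox9-CreER, and the 2 WT libraries (WT 1 and WT 2) from C57BL/6 mice labelled wild type. By its title the study concerns YAP and AP-1 in the start of pancreatic cancer from duct cells. Lats1 and Lats2 encode kinases of the Hippo pathway, which hold back the transcriptional co-activators YAP and TAZ. Sox9-CreER is a tamoxifen-activated Cre recombinase made in Sox9-expressing cells, which include duct cells, and it does not act in cells that lack it. The sources used here do not give age, time after induction or the way duct cells were isolated, and no label says that a group's libraries came from separate mice. The p-values therefore measure the spread between these libraries, which may be technical.

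Complement is a cascade of plasma and tissue proteins that marks targets for uptake or lysis. The classical pathway starts with C1, in which the recognition protein C1q, built from A, B and C chains, carries the proteases C1r and C1s. C1s cleaves C4 and C2, and the resulting enzyme cleaves C3. The alternative pathway amplifies C3 cleavage with factor B and factor D. The fragments C3a and C5a signal through the receptors encoded by C3ar1 and C5ar1. The liver makes most plasma C3 and C4, whereas C1q is made mainly by macrophages and dendritic cells, and fibroblasts and epithelia also make several components.

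The promoters of the members that differed most between the groups are shown first, because the C1q chains and the receptors were higher together in the KO-labelled libraries while C3 was lower. RefSeq promoter sequences (GRCm38.p6, 250 bases before to 50 bases after the gene start) matched 6 of the 9 members. None was matched for C1qa, C4b or Cfb, so of the C1q chains only C1qb and C1qc are shown. Each is written 5′ to 3′ on the gene's strand. The RefSeq starts are not always those of the gene models counted: the start lay 202 bases downstream of the model's for C5ar1, 151 for C1qc and 216 for C1ra, and within 13 bases of it for C1qb, C3 and C3ar1. The windows are chr4:136886151-136886450 for C1qb, chr4:136892865-136893164 for C1qc, chr6:122856108-122856407 for C3ar1, chr7:16259289-16259588 for C5ar1 and chr17:57228087-57228386 for C3, all on the minus strand. Capitals mark matches to any of 5 motifs searched on both strands, namely GAGGAA (the core bound by PU.1), TGANTCA (AP-1), GGAATG (TEAD), TTGCNNAA (C/EBP) and TTCNNNGAA (STAT).

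C1qb: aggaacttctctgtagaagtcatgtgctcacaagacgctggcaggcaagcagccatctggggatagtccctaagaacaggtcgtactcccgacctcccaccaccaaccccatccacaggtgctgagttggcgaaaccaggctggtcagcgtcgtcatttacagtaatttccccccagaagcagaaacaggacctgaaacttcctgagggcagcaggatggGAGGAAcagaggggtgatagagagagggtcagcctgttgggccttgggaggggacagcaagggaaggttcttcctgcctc

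C1qc: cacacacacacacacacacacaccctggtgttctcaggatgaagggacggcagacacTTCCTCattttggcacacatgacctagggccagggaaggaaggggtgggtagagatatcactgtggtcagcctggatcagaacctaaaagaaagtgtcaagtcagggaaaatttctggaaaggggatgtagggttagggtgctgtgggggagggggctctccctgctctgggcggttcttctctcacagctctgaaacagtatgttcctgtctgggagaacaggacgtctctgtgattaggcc

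C3ar1: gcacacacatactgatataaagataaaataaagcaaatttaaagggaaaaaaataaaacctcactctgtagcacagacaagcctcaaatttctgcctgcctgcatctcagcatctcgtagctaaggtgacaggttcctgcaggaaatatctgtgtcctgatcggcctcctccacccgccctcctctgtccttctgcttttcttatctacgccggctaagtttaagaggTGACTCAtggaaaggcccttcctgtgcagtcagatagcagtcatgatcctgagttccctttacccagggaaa

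C5ar1: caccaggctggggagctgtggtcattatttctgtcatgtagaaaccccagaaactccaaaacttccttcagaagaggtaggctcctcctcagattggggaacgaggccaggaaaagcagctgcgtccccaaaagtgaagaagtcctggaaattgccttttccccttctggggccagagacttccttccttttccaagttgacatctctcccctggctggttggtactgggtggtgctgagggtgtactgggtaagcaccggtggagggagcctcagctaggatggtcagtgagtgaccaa

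C3: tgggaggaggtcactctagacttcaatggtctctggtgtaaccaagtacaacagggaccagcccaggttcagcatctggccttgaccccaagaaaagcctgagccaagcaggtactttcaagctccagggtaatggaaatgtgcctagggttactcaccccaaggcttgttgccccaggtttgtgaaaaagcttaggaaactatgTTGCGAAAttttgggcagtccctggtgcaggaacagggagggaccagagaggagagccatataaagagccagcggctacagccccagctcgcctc

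C1qb held the PU.1 core 30 bases before the start and C1qc held it on the other strand, 193 bases before the start. A match to GAGGAA was present in 28.3% of the 32851 promoters in the same table. C3ar1 held an AP-1 match 22 bases before the start, a motif found in 7.81% of all promoters. C3 held a C/EBP match 45 bases before the start, present in 10.8% of all promoters. The C5ar1 window held none of these letters. The C1ra promoter, whose sequence is not printed, held matches to the PU.1, TEAD, C/EBP and STAT motifs, some of which overlap. The PU.1 and TEAD letters can share bases. The TEAD motif was present in 14.7% and the STAT motif in 8.30% of all promoters. These matches describe the letters only.

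The libraries held 5082636 (KO 1), 5925601 (KO 2), 3566387 (WT 1) and 4735183 (WT 2) counts. Levels are counts-per-million (CPM) scaled by the trimmed mean of M values (TMM), and 3 counts in a library equalled 0.506 to 0.841 CPM before that scaling. Neither targeted gene was lower in the KO-labelled libraries. Lats1 averaged 74.6 ± 6.45 CPM in KO-labelled and 58.2 ± 10.5 CPM in WT libraries, and Lats2 averaged 142 ± 29.7 CPM in KO-labelled and 108 ± 8.53 CPM in WT libraries (SD, n = 2 each). Counts cover whole gene models, so a transcript that lacks the deleted exons is still counted, and these values do not check the deletion. Duct markers were present in every library, and 9 of 12 rose in the KO-labelled ones, where their summed level was 15260 and 15430 CPM, against 2121 and 2613 CPM in WT. Transcripts of other cell types were present too. The summed level of 11 acinar markers was 128.0 and 3051 CPM in KO 1 and KO 2, against 46100 and 82760 CPM in WT 1 and WT 2. The summed level of 8 hepatocyte markers was 49.9 and 46.8 CPM in KO 1 and KO 2, against 7903 and 226.8 CPM in WT 1 and WT 2, with 4 and 3 of them at 0 in KO 1 and KO 2, against 0 and 1 in WT 1 and WT 2. WT 1 thus stood apart from the other 3 libraries in liver transcripts, WT 2 was also above both KO-labelled libraries, and the calls on C1ra, C3, C4b and C4bp are also given without it.

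Of the 8 members tested, 5 were higher and 2 were lower in the KO-labelled libraries (edgeR's quasi-likelihood test, Benjamini-Hochberg adjusted p under 0.05). Among all tested genes 22.0% were higher and 20.2% lower, and 42.2% passed in either direction. The C1q chains and both anaphylatoxin receptors rose, C1ra and C3 fell, C4b did not pass, and Cfb had too few counts to test. The groups did not overlap for 7 of the 8 tested members, which was true of 74.3% of all tested genes. A rise of more than 8-fold past the threshold was found for all 5 of the raised members and for 2.12% of tested genes. Of the raised members, C5ar1 had enough counts for testing only in the KO-labelled libraries, where it was high. The members were chosen with earlier results of these data known, so these counts describe them and are not a test of the set.

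**Figure D1:**
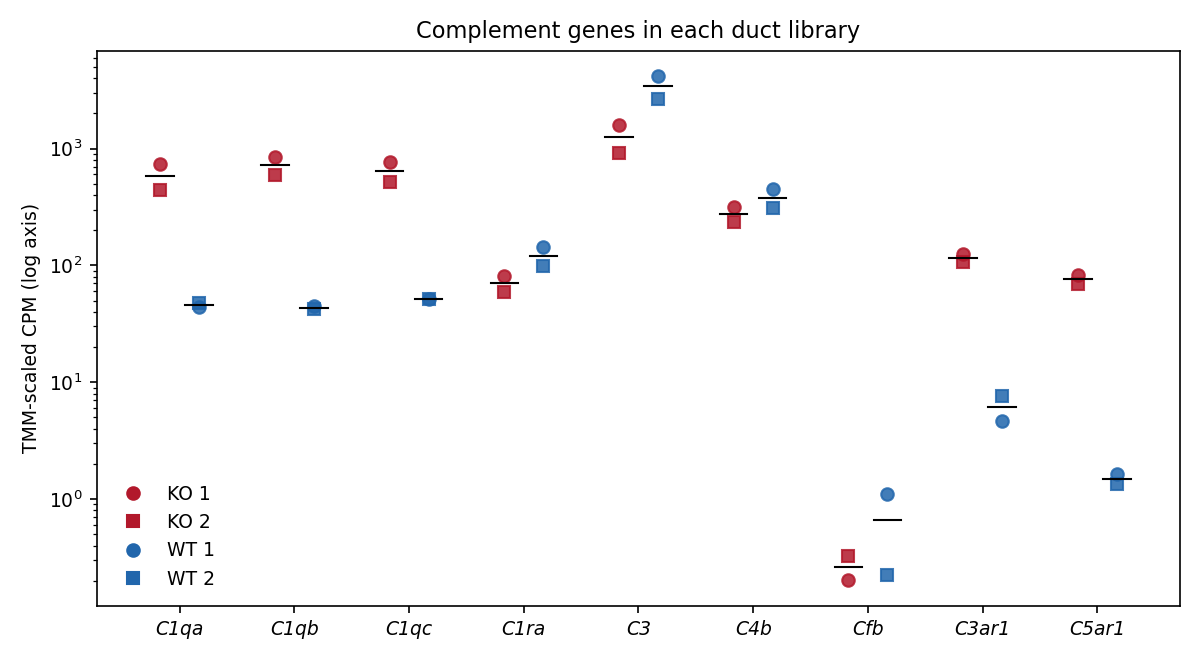
Level of the 9 complement genes in each library, as TMM-scaled CPM on a log axis, with KO-labelled libraries (red) left of WT libraries (blue) and a line at each group mean of 2 libraries. The C1q chains, C3ar1 and C5ar1 sit far above WT in both KO-labelled libraries, C1ra and C3 sit below WT, C4b overlaps, and Cfb is near the limit of detection in all 4.

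The C1q chains stood near a common CPM level, not corrected for gene length, within each library. All were much higher in the KO-labelled libraries. The genes lie next to each other on mm10 chromosome 4, minus strand, with C1qa at 136895917 to 136898803, C1qc at 136889804 to 136893065 and C1qb at 136880129 to 136886187. C1qa, the A chain, was at 729.9 and 441.1 CPM in KO 1 and KO 2, against 43.7 and 47.2 CPM in WT 1 and WT 2. C1qb, the B chain, was at 847.4 and 589.9 CPM in KO 1 and KO 2, against 44.5 and 42.0 CPM in WT 1 and WT 2. C1qc, the C chain, was at 760.5 and 514.4 CPM in KO 1 and KO 2, against 51.7 and 51.2 CPM in WT 1 and WT 2. Both KO-labelled libraries lay above both WT libraries for each chain, and KO 1 was the higher of the KO-labelled pair each time. Expressed as fold changes, C1qa rose 12.9-fold (log2 3.69 ± 0.27 SE), C1qb 16.6-fold (4.05 ± 0.23) and C1qc 12.4-fold (3.63 ± 0.23). The edgeR adjusted p-values were 4.9e-05, 1.5e-05 and 1.8e-05. Leaving out any single library left every chain raised, with log2 changes from 3.28 to 4.32.

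Together the C1q chains took 0.229% and 0.161% of all counts in KO 1 and KO 2, against 0.0143% and 0.0132% in WT 1 and WT 2. Of the C1q counts, C1qb gave 36.3% in KO 1 (95% Wilson interval 35.4 to 37.1%) and 38.2% in KO 2 (37.2 to 39.2%). In WT 1 it gave 31.8% (27.9 to 36.0%) and in WT 2 29.9% (26.5 to 33.6%). The C1qb share was thus higher in both KO-labelled libraries, with no overlap between the intervals of KO 1 and WT 2 or of KO 2 and either WT library. The interval of KO 1 overlapped that of WT 1. C1qc gave 32.5% in KO 1 (31.7 to 33.4%) and 33.3% in KO 2 (32.4 to 34.2%), against 36.9% in WT 1 (32.9 to 41.2%) and 36.5% in WT 2 (32.8 to 40.3%). C1qa gave 31.2% in KO 1 (30.4 to 32.1%) and 28.5% in KO 2 (27.7 to 29.5%), against 31.2% in WT 1 (27.4 to 35.4%) and 33.6% in WT 2 (30.0 to 37.4%). These intervals cover counting error only. An exact two-sided permutation test of 2 libraries against 2 cannot go below p = 0.333, so the difference in chain shares was not tested.

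The macrophage markers moved with the C1q chains. Of 15 macrophage genes tested, 13 rose, with a median log2 change of 2.80, and none was at 0 in any library. Their summed level was 8188 and 5648 CPM in KO 1 and KO 2, against 1001 and 931.4 CPM in WT 1 and WT 2. The C1q sum equalled 28.5% and 27.4% of the macrophage marker sum in KO 1 and KO 2, against 14.0% and 15.1% in WT 1 and WT 2. Relative to this sum, most of which came from Ctss and Lyz2, C1q was higher by 0.95 on the log2 scale, where libraries of a group differed by 0.06 (SD of log2 ratios). Relative to single markers it was not always higher. The Fc receptor genes Fcgr3 (log2 change 4.71) and Fcgr1 (4.52) changed by more than each C1q chain, and Adgre1 (3.93) and Cd14 (3.84) by more than C1qa and C1qc. How much of the rise goes with macrophage number was not tested. In bulk libraries, more cells of a type and more RNA per cell cannot be told apart. Over the 4 libraries, the named genes whose centred log2 CPM lay nearest to the mean of the C1q chains, among 9490 candidates, were Gpr35, Adgre1, Serpinb9b, Anxa1 and Ccl9. Their distances were 0.203 to 0.270 log2 units, and their log2 changes were 3.68 to 4.13. Genes chosen for this nearness have log2 changes like those of the C1q chains by construction. Adgre1, already among the macrophage markers above, encodes the macrophage surface protein F4/80. It was at 105.7 CPM in KO-labelled and 6.89 CPM in WT libraries on average.

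Of the proteases that C1q carries, C1ra fell and C1s1 did not pass. C1ra (chromosome 6, 124512405 to 124523443, plus strand), the C1r protease, was at 81.7 and 59.1 CPM in KO 1 and KO 2, against 143.5 and 98.9 CPM in WT 1 and WT 2. Both KO-labelled libraries lay below both WT libraries. C1ra fell 1.72-fold (log2 change -0.78 ± 0.23 SE, edgeR adjusted p = 0.0272). Leaving out WT 1 gave -0.48 (edgeR adjusted p = 0.178), and leaving out KO 2 gave -0.54 (edgeR adjusted p = 0.188), neither past the threshold. C1s1, the C1s protease, was at 132.8 and 96.0 CPM in KO-labelled libraries and 153.3 and 123.8 CPM in WT libraries, which overlap. Its log2 change of -0.28 ± 0.20 did not pass (edgeR adjusted p = 0.307). The paralogs C1rb and C1s2 were low, at 3.79 ± 0.33 and 2.22 ± 0.29 CPM in KO-labelled libraries and 1.70 ± 0.46 and 1.67 ± 0.81 CPM in WT libraries (SD, n = 2). Neither passed (edgeR adjusted p = 0.118 and 0.643). Reads of these near-identical pairs may have been split or dropped by the counting, since the sources used here do not say how shared reads were treated. C1rl, a C1r-like protease, fell 2.95-fold (edgeR adjusted p = 0.0324). Its log2 change was -1.56 with all libraries and -2.04 without WT 2, both past the threshold. It was -0.85 when WT 1 was left out, -2.06 when KO 1 was and -1.14 when KO 2 was, and these missed it (edgeR adjusted p = 0.229, 0.0573 and 0.206).

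Levels between genes were compared per kilobase of annotated exon (GENCODE M21). On this scale C1qc stood below C1qa and C1qb in every library. In KO 1 it was at 393.8 CPM per kb, against 701.8 for C1qa and 778.9 for C1qb. In WT 1 it was at 26.8 CPM per kb, against 42.0 for C1qa and 40.9 for C1qb. The mean C1q chain stood at 624.9 and 410.9 CPM per kb in KO 1 and KO 2, against 36.6 and 36.8 CPM per kb in WT 1 and WT 2. C1ra stood at 27.4 and 19.8 CPM per kb in KO 1 and KO 2, against 48.1 and 33.2 CPM per kb in WT 1 and WT 2. The mean chain was thus 22.8 and 20.7 times the C1ra level in KO 1 and KO 2, and 0.760 and 1.11 times in WT 1 and WT 2. Relative to C1s1 the mean chain was 14.7 and 13.4 times in KO 1 and KO 2, and 0.746 and 0.931 times in WT 1 and WT 2. In WT libraries, then, recognition chains and proteases of C1 were at like levels per length, and in KO-labelled libraries the chains were far above. Fibroblast markers, from cells that commonly make C1r and C1s, were higher in the KO-labelled libraries. Of 10 tested, 8 rose, with summed levels of 15800 and 10020 CPM in KO 1 and KO 2, against 3359 and 2929 CPM in WT, and none at 0. Relative to that sum, C1ra was lower by 2.78 on the log2 scale in the KO-labelled libraries. Most of the sum came from the collagen genes Col1a1, Col1a2 and Col3a1, which rose. The fibroblast markers Dcn (log2 change 0.04) and Fbln1 (-0.41) did not pass. The part of fibroblasts in the C1ra level was not tested.

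**Figure D2:**
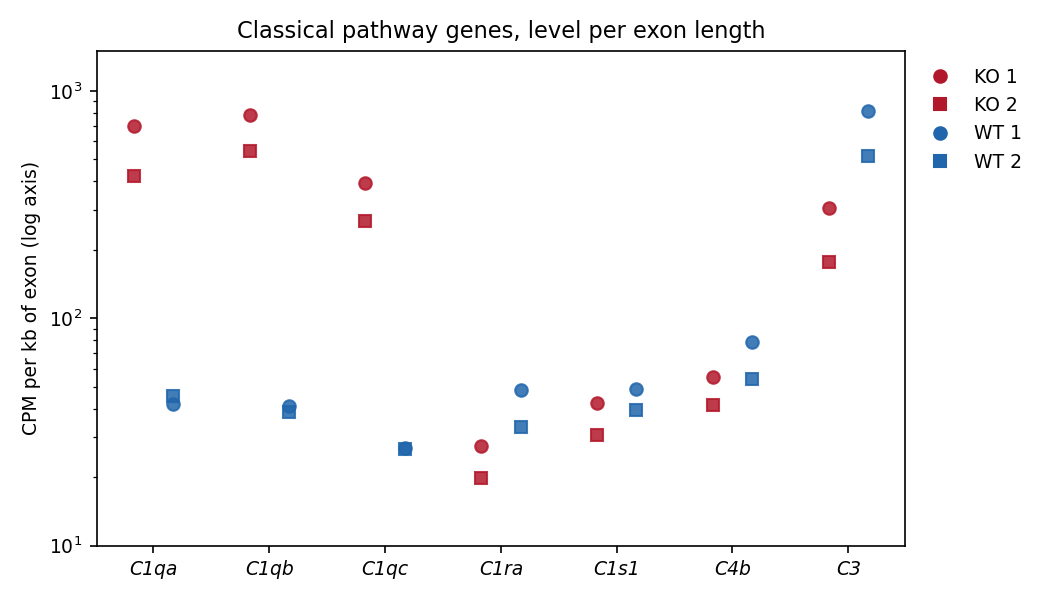
Level of classical pathway genes per kilobase of annotated exon in each library, on a log axis, with KO-labelled libraries (red) left of WT libraries (blue). In WT the C1q chains, C1ra and C1s1 lie in a common range, whereas in the KO-labelled libraries the mean chain stands at 22.8 and 20.7 times C1ra and at 14.7 and 13.4 times C1s1. C4b and C3 are drawn on the same scale.

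C3, the central component that every pathway cleaves, was the most abundant member by CPM and was lower in the KO-labelled libraries. C3 (chromosome 17, 57203970 to 57228136, minus strand) was at 1574 and 913.3 CPM in KO 1 and KO 2, against 4176 and 2668 CPM in WT 1 and WT 2. It took 0.154% and 0.0952% of all counts in KO 1 and KO 2, against 0.426% and 0.251% in WT. The groups did not overlap, and KO 1 and WT 1 were the higher libraries of their groups. C3 fell 2.75-fold (log2 change -1.46 ± 0.33 SE, edgeR adjusted p = 0.0102). When WT 1, the library with the high liver transcripts, was left out, the log2 change was -1.09 and missed the threshold (edgeR adjusted p = 0.0731). When KO 2 was left out it was also -1.09 (edgeR adjusted p = 0.0779), and without KO 1 or WT 2 it was -1.90 and -1.74 (edgeR adjusted p = 0.0196 and 0.00770). Albumin (Alb), the defining hepatocyte transcript, was at 3.22 and 1.13 CPM in KO 1 and KO 2, against 5788 and 139.1 CPM in WT 1 and WT 2. The part of liver transcripts in the C3 difference was not tested.

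Relative to marker sums C3 was lower as well. It equalled 10.3% and 5.92% of the duct marker sum in KO 1 and KO 2, against 196.8% and 102.1% in WT 1 and WT 2. Relative to the collagen-dominated fibroblast sum it was 9.96% and 9.12% in KO 1 and KO 2, against 124.3% and 91.1% in WT. Both marker lists were higher in the KO-labelled libraries, so these ratios widened the difference. The named genes nearest to C3 in centred log2 CPM were Gdf10, Adcyap1r1, Tbck, Sp140 and Fxyd1. Their distances were 0.138 to 0.213 log2 units among 9492 candidates. Their log2 changes, -1.50 to -1.33, were near that of C3 by construction.

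C4b, the classical pathway component that C1s cleaves, did not differ beyond the threshold. C4b (chromosome 17, 34728380 to 34743882, minus strand) was at 313.9 and 235.7 CPM in KO 1 and KO 2, against 449.9 and 307.7 CPM in WT 1 and WT 2. KO 1 lay slightly above WT 2, so the groups overlapped. The log2 change was -0.46 ± 0.22 SE (edgeR adjusted p = 0.132). With upper quartile scaling it fell past the threshold (-0.66, edgeR adjusted p = 0.0480), and when WT 1 was left out it was -0.15 (edgeR adjusted p = 0.699). Relative to the collagen-dominated fibroblast sum C4b was 1.99% and 2.35% in KO 1 and KO 2, against 13.4% and 10.5% in WT. Its paralog C4a had 3 to 5 counts in every library and was not tested, and reads shared by the pair may have been split or dropped. C3 was 5.55 and 4.29 times C4b per kb of exon in KO 1 and KO 2, against 10.3 and 9.60 times in WT 1 and WT 2.

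Cfb (chromosome 17, 34856374 to 34862518, minus strand), which encodes the alternative pathway protease factor B, had 1 and 2 counts in KO 1 and KO 2, against 4 and 1 counts in WT 1 and WT 2. No library was above the others by more than a few counts, and a difference was not detectable at this depth. In GENCODE M21, 79.5% of the exon bases of Cfb also belong to the exons of Gm20547, a model on the same strand that spans Cfb and C2. Gm20547 had 0 counts in all 4 libraries. The sources used here do not say how reads shared by both models were assigned, so the low Cfb count is not a measure of factor B expression. C2, the classical pathway counterpart of factor B, shares 42.8% of its exon bases with Gm20547. C2 had 14.29 and 10.04 CPM in KO 1 and KO 2, against 9.62 and 8.09 CPM in WT 1 and WT 2, and did not pass (log2 change 0.46 ± 0.33 SE, edgeR adjusted p = 0.305).

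Factor D (Cfd, or adipsin), the protease that activates factor B, was found in the KO-labelled libraries and not in WT. Cfd had 253 and 155 counts (50.9 and 25.1 CPM) in KO 1 and KO 2, and 0 counts in both WT libraries. It passed the filter on low counts through the KO-labelled libraries alone and was at least 98.7-fold higher, against a floor of 3 counts over the WT group (edgeR adjusted p = 0.000623). Cfd is best known from adipocytes. Adipoq, which encodes the adipocyte hormone adiponectin, had 32 and 22 counts in KO 1 and KO 2 and 0 in both WT libraries, whereas the lipid carrier gene Fabp4 did not pass (log2 change -0.13 ± 0.18 SE, edgeR adjusted p = 0.586). Of the 7 adipocyte markers, 1 of which is Cfd itself, 4 were tested, 3 rose and Lep was at 0 in all 4 libraries. Without Cfd, the other 6 summed to 68.6 and 56.0 CPM in KO 1 and KO 2, against 55.8 and 55.3 CPM in WT. The KO 2 sum was thus nearly level with WT, but Fabp4 made up most of it. Fabp4 was at 52.9 and 46.1 CPM in KO 1 and KO 2, against 55.0 and 53.7 CPM in WT. Cidec, which rose as Adipoq did, had 28 counts in each KO-labelled library, against 1 and 0 in WT 1 and WT 2. The part of adipocytes in the Cfd level was not tested. Properdin (Cfp), which stabilises the alternative pathway enzyme, was at 104.4 and 37.6 CPM in KO 1 and KO 2, against 36.0 and 30.3 CPM in WT 1 and WT 2, and did not pass (edgeR adjusted p = 0.188).

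Both anaphylatoxin receptors rose, and C5ar1 had the largest log2 change of the members, with all libraries and whichever was left out. C5ar1 (chromosome 7, 16246743 to 16259540, minus strand), the C5a receptor of myeloid cells, was at 83.1 and 69.3 CPM in KO 1 and KO 2, against 1.65 and 1.35 CPM in WT 1 and WT 2. Each WT library held 6 counts, against 413 and 428 counts in KO 1 and KO 2. C5ar1 passed the filter on low counts through the KO-labelled libraries alone. It rose 50.4-fold (log2 5.65 ± 0.29 SE, edgeR adjusted p = 1.2e-05), and 0.336% of tested genes had a larger log2 change. C3ar1 (chromosome 6, 122847138 to 122856161, minus strand), the C3a receptor, was at 124.2 and 107.2 CPM in KO 1 and KO 2, against 4.67 and 7.64 CPM in WT 1 and WT 2. Both KO-labelled libraries were far above both WT libraries for each receptor, and the KO-labelled libraries were close to each other. C3ar1 rose 18.5-fold (log2 4.21 ± 0.26 SE, edgeR adjusted p = 1.7e-05). Leaving out single libraries gave log2 changes of 5.51 to 5.81 for C5ar1 and 3.93 to 4.63 for C3ar1, all past the threshold.

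For the other C5a receptor no difference was detected. C5ar2, which lies beside C5ar1 on chromosome 7, was at 1.61 and 2.43 CPM in KO 1 and KO 2, against 2.20 and 1.35 CPM in WT 1 and WT 2. The groups overlapped, and the log2 change of 0.22 ± 0.60 SE did not pass (edgeR adjusted p = 0.797) and turned negative when KO 2 or WT 2 was left out (-0.09 and -0.10). Relative to the macrophage marker sum, C5ar1 stood at 1.02% and 1.23% in KO 1 and KO 2, against 0.165% and 0.145% in WT. C3ar1 stood at 1.52% and 1.90% of that sum in KO 1 and KO 2, against 0.467% and 0.821% in WT, while its log2 change of 4.21 was below those of Fcgr3 (4.71) and Fcgr1 (4.52). Neutrophils also carry C5ar1. Of 10 neutrophil markers 5 were tested, of which 2 rose and 2 fell, and their summed level was 42.5 and 30.9 CPM in KO 1 and KO 2, against 230.8 and 121.1 CPM in WT 1 and WT 2. Csf3r (log2 change 2.055) and Mmp8 (3.037) rose, and S100a9 (-2.162) and Ltf (-3.969) fell. Mmp8 had 48 and 31 counts in KO 1 and KO 2, against 3 and 4 counts in WT 1 and WT 2. Ly6g, a defining neutrophil marker, was at 0 in KO 1, KO 2 and WT 2 and had only 2 counts in WT 1. The granule gene Ltf, which secretory epithelia also express, made up most of the WT sum. The parts of macrophages and neutrophils in the C5ar1 and C3ar1 levels were not tested.

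Among the other complement genes, 36 of 48 were tested, of which 7 rose and 7 fell, shares close to those of all tested genes. Of these, Cfd among those that rose, and Colec10, Colec11, C4bp and Csmd1 among those that fell, had enough counts for testing only in the group where they were high. Their median log2 change was -0.08, against -0.01 for all tested genes. Leaving out WT 2 makes the liver-rich WT 1 the lone WT library. The lone library is then assumed to vary like the KO-labelled pair, so the number of calls in that run is not given.

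**Figure D3:**
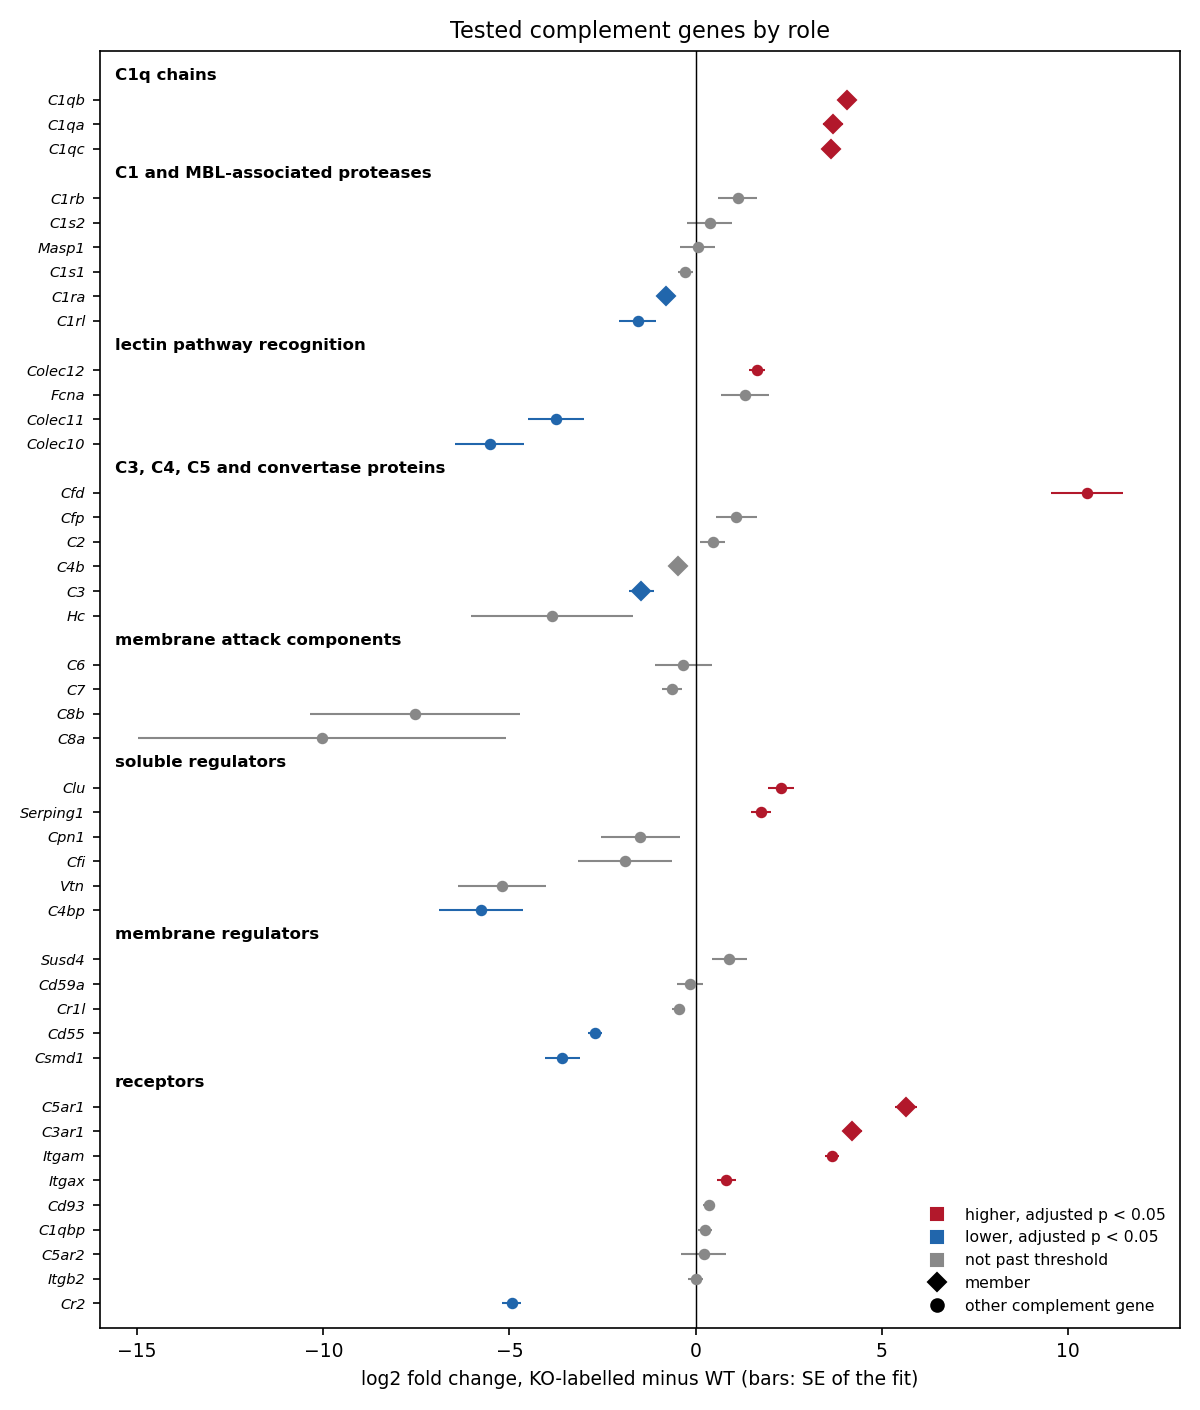
Log2 fold change, KO-labelled minus WT, with the standard error of the fit, for tested complement genes grouped by role, diamonds marking the members. Red and blue mark genes past an adjusted p of 0.05. Cfd and C8a have a group at 0 counts, so their fitted positions are not bounds.

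Among the soluble regulators, Serping1 and Clu rose and C4bp fell. Serping1, the inhibitor of C1r and C1s, was at 923.5 and 570.9 CPM in KO 1 and KO 2, against 256.7 and 188.1 CPM in WT 1 and WT 2, and rose 3.36-fold (edgeR adjusted p = 0.00195). Clusterin (Clu), a chaperone that blocks the membrane attack complex, was at 4582 and 9525 CPM in KO 1 and KO 2, against 1418 and 1453 CPM in WT, and rose 4.91-fold (log2 change 2.30, edgeR adjusted p = 0.00189). KO 2 was the higher, and when it was left out the log2 change was 1.71 (edgeR adjusted p = 0.000329). Serping1 and Clu were above both WT libraries in both KO-labelled libraries. C4bp, the C4b-binding protein made by liver, had 4 and 0 counts in KO 1 and KO 2, against 119 and 44 counts in WT 1 and WT 2 (log2 change -5.76 ± 1.12 SE, edgeR adjusted p = 0.0130). C4bp passed the filter on low counts through the WT libraries alone. When KO 2, which held 0 counts, was left out, the log2 change was -4.64 and missed the threshold (edgeR adjusted p = 0.0918), and when WT 1 was left out it was -4.65 and passed (edgeR adjusted p = 0.00461). Vtn had 33 and 12 counts in KO 1 and KO 2, against 868 and 313 counts in WT 1 and WT 2. The groups did not overlap, but Vtn did not pass (log2 change -5.2 ± 1.2 SE, edgeR adjusted p = 0.0656). It passed the filter on low counts through the WT libraries alone. Cfi and Cpn1 did not pass either, and Cpn2 was not tested.

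Of 5 membrane regulators tested, 2 fell, while 20.2% of all tested genes did. Cd55, which speeds the decay of the C3-cleaving enzymes on a cell's own surface, was at 30.6 and 23.8 CPM in KO 1 and KO 2, against 172.0 and 179.4 CPM in WT 1 and WT 2. Both KO-labelled libraries were far below WT, a 6.47-fold fall (log2 change -2.69 ± 0.19 SE, edgeR adjusted p = 2.9e-05). Csmd1, a large membrane protein with complement-control repeats, fell 11.98-fold (edgeR adjusted p = 0.000514), with log2 changes of -4.48 to -2.94 when single libraries were left out, against -3.58 with all, and it passed the filter on low counts through WT alone. Cr1l, the rodent regulator Crry, was at 47.1 and 48.4 CPM in KO 1 and KO 2, against 64.3 and 66.5 CPM in WT, and did not pass (edgeR adjusted p = 0.0649).

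Among the other receptors, 2 of 7 tested rose and 1 fell, while 22.0% of all tested genes rose and 20.2% fell. Itgam, the alpha chain of complement receptor CR3 on myeloid cells, was at 331.8 and 305.9 CPM in KO 1 and KO 2, against 22.3 and 28.1 CPM in WT 1 and WT 2, and rose 12.6-fold (edgeR adjusted p = 1.3e-05). Itgax, the alpha chain of CR4, rose 1.76-fold (edgeR adjusted p = 0.0316). Its log2 change of 0.82 was 0.44, 0.76 and 0.90 when KO 1, WT 1 and WT 2 were left out in turn, none past the threshold (edgeR adjusted p = 0.199, 0.107 and 0.0720). Upper quartile scaling gave 0.62, which missed it as well (edgeR adjusted p = 0.0820). Itgb2, the beta chain that both integrins share with lymphocyte integrins, averaged 251.0 ± 62.9 CPM in KO-labelled and 251.3 ± 8.28 CPM in WT libraries (SD, n = 2 each; edgeR adjusted p = 0.994). Cr2, the C3d receptor of B cells and follicular dendritic cells, was at 2.62 and 2.27 CPM in KO 1 and KO 2, against 77.5 and 73.5 CPM in WT 1 and WT 2. It fell 30.8-fold (log2 change -4.94 ± 0.25 SE, edgeR adjusted p = 1.2e-05). All 8 B cell markers fell too, with a summed level of 76.1 and 29.5 CPM in KO 1 and KO 2, against 1351 and 1131 CPM in WT, and none of them at 0. The part of B cells in the Cr2 level was not tested.

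Of 4 genes tested in the lectin pathway recognition list, 1 rose and 2 fell. Among all tested genes 22.0% rose and 20.2% fell. Colec12, a scavenger collectin of stroma and endothelium, was at 210.5 and 150.5 CPM in KO 1 and KO 2, against 64.0 and 50.6 CPM in WT 1 and WT 2, and rose 3.15-fold (edgeR adjusted p = 0.000531). Colec11 had 6 and 1 counts in KO 1 and KO 2, against 44 and 27 counts in WT 1 and WT 2, and fell 13.5-fold (edgeR adjusted p = 0.00446). Both Colec11 and Colec10 passed the filter on low counts through the WT libraries alone. Colec10 had 1 count over the KO-labelled libraries and 42 over the WT libraries. Its WT level was 57.9 times the KO-labelled level by pooled counts, with a 95% exact interval of 9.84 to 2340 that covers counting error only (edgeR adjusted p = 0.00191). Both stayed past the threshold whichever library was left out, with log2 changes of -5.59 to -2.84 for Colec11 and -7.54 to -4.83 for Colec10.

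Most terminal components, C5 and some lectin pathway proteins, which the liver makes, were highest in WT 1. C8a, C8b, C9, Hc (which encodes C5), Mbl2 and Masp2 were chosen for mention after their values were seen. C8a had 0 counts in both KO-labelled libraries, against 191 and 13 counts in WT 1 and WT 2. C9 had 0 counts in KO 1 and KO 2, against 84 and 1 counts in WT 1 and WT 2. C8b had 0 and 1 counts in KO 1 and KO 2, against 151 and 10 counts in WT 1 and WT 2. C8a, C8b and C9 encode parts of the pore that the cascade forms in membranes. Mbl2, a mannose-binding lectin, had 1 and 0 counts in KO 1 and KO 2, against 86 and 0 counts in WT 1 and WT 2. Hc had 13 and 9 counts in KO 1 and KO 2, against 209 and 9 counts in WT 1 and WT 2. Masp2, a protease of the lectin pathway, had 26 counts in WT 1 and 0 in the other 3 libraries. In each of these genes WT 1 was the high library, as it was for the hepatocyte markers. Of the 6 membrane attack genes 4 were tested and 0 passed edgeR's adjusted threshold, while 1 had an unadjusted p under 0.05 and 2 were called lower by DESeq2. When WT 2 was left out, 4 were called lower by edgeR. The part of hepatocytes in these levels was not tested.

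**Figure D4:**
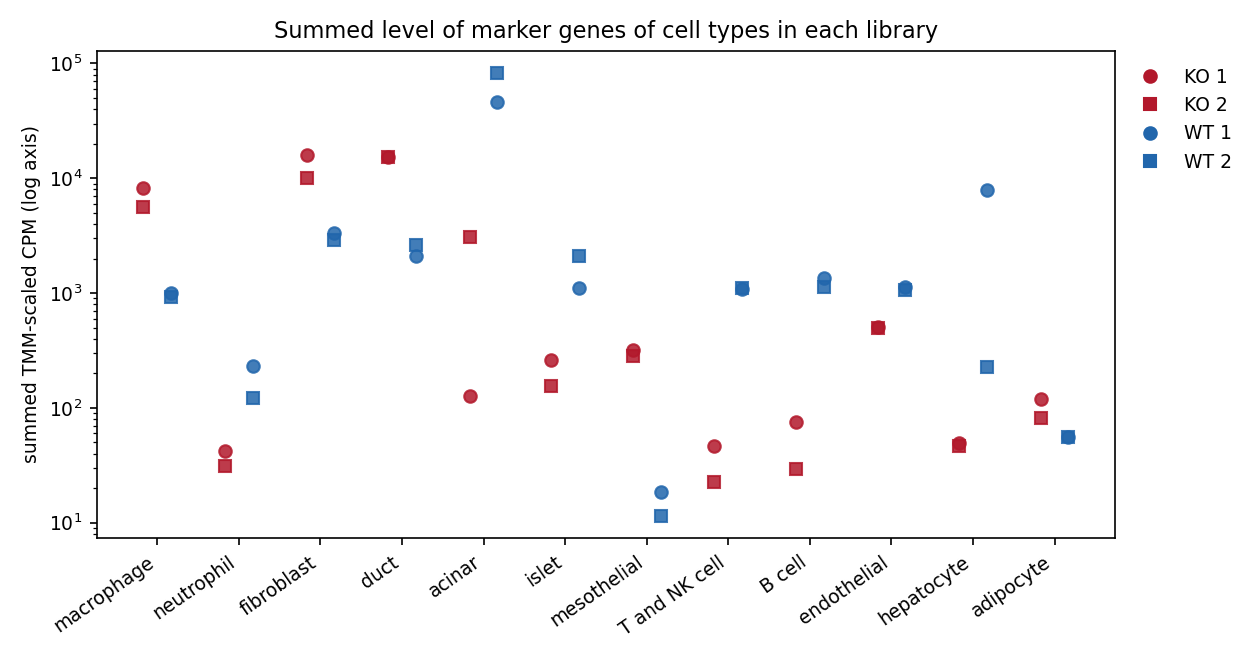
Summed TMM-scaled CPM of the marker genes of each cell type in each library, on a log axis, with KO-labelled libraries (red) left of WT libraries (blue). Macrophage, fibroblast and duct sums are higher in the KO-labelled libraries, acinar, B cell and T and NK cell sums are lower, and the hepatocyte sum is 7903 CPM in WT 1 and 226.8 CPM in WT 2, both above the KO-labelled libraries.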

How the data were processed

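RNA sequencing of pancreatic duct RNA was analysed in 2 libraries labelled Lats1/2 KO and 2 WT libraries, grouped by their titles. Each deposited file lists the raw counts of 1 library over all gene models. The submitters' processing notes name mm10, TopHat and edgeR. The sources used here do not give the counting program, its annotation or its use of strand. Per the labels' protocols, libraries were made from 1 µg of total RNA with a stranded SMARTer kit. Model starts count from 0 in the files and are printed from 1.

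From these counts, low genes were removed by filterByExpr, libraries were scaled by TMM and genes were tested in edgeR 4.0.16 (R 4.3.3, glmQLFit with robust estimation, glmQLFTest) with genotype as the only term. Benjamini-Hochberg adjustment ran over all 13990 genes, with a threshold of 0.05. The procedure was tested on simulated counts in which far fewer genes changed than were called here. That test does not cover a setting with this many changed genes. Standard errors are the log2 change divided by the square root of the test's F. Alternatives were RLE, upper quartile and library-total scaling, no filter, DESeq2 1.42.0, the replicate number as a block and leaving out each library. Exon lengths and overlaps come from GENCODE M21.

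The members and lists were chosen with earlier results of these data known. Named are the members, up to 3 raised and 3 lowered genes past the threshold for each role in the complement list, the paralogs C1rb, C4a and C5ar2, the C1s genes and C2, and the 5 genes nearest to the C1q chains and to C3 (mean of at least 10 CPM). Other complement genes named beside these (Cfp, Cfi, Cpn1, Cpn2, Vtn, Cr1l, Itgb2, C7 and those highest in WT 1) were chosen after their values were seen. The libraries of a group were not copies of each other: their counts differed beyond sampling noise (chi-square over its degrees of freedom 19.98 for the KO-labelled pair and 20.06 for WT). Of the complement list, 1 gene, included in the counts, is not reported here.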

Additional observations from a re-analysis of the deposited data

How the results depend on the processing

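C1qa, C1qb, C1qc, C3ar1 and C5ar1 stayed raised under every alternative run, and 5 members were called higher in each. The calls of C1ra and C3 were lost without KO 2 (log2 changes -0.54 and -1.09) and without WT 1 (-0.48 and -1.09), so 0 to 2 members were called lower when a library was left out. For C1ra the log2 change ranged from -1.03 to -0.48 and for C3 from -1.90 to -1.09. C4b was called lower with upper quartile scaling (-0.66) and with the replicate block (-0.45). The median log2 change over all genes was -0.20 with upper quartile scaling, against -0.01 with TMM, and that scaling called 2339 genes higher and 3594 lower, against 3077 and 2832. The number of other complement genes called lower was 6 to 18 when a library was left out, against 7 with all. C5ar2 changed sign without KO 2 (-0.09) and without WT 2 (-0.10), ranged from -0.10 to 0.60 when a library was left out, and did not pass in any alternative. The ratios of C3, C4b and C1ra to the fibroblast sum became -3.22, -2.19 and -2.52 on the log2 scale without the highest marker, and that of C5ar1 to the neutrophil sum fell to 5.64, against 7.88 with it. Same-numbered libraries deviated from their group means with a correlation of 0.035 across genes. This does not exclude a common batch, and the sources used here give only the shared replicate number. With that number as a block, 10 other complement genes were called lower and 8 higher, against 7 and 7. Depth limits the precision of fold changes of genes with a few counts in a library, such as C5ar1 in WT.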
